A study of Mus musculus with 15 samples.

Results

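The tumour-private CDR3s are T cell receptor (TCR) alpha loops of CD8+ T cells that were read in a single prostate tumour and nowhere else in the series. They were selected on read counts and on absence: a CDR3 peptide was taken when it had at least 10 reads in exactly 1 of 5 tumour libraries and was listed neither in the other 4 tumours nor in any of 10 spleen and lymph node libraries. Of 92219 distinct CDR3s in the series, 6146 were listed in a tumour, 3227 had at least 10 reads in a tumour, and 1294 met the rule. The rule found 265, 523, 145, 219 and 142 of them in Tumours 1 to 5. The lists start at 2 reads, so a CDR3 that is not listed had fewer than 2 reads there, unless a filter that the sources used here do not give removed it.

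All mice were C57BL/6 males with the genotype TCRbtg, a fixed transgenic TCR beta chain, so that receptors differ from cell to cell in the alpha chain. The tumour mice also carried the TRAMP transgene in 1 copy (TCRbtg TRAMP+/-) and were 27 weeks old, and their prostate cells were sorted as CD8b+ CD4neg without a gate on CD44 or CD122. The other groups came from TCRbtg mice aged 9 weeks, with spleen and lymph nodes pooled; the labels give these mice no TRAMP transgene. They comprised 5 libraries of memory-phenotype cells (MP; CD8b+ CD4neg CD44hi CD122+) and 5 of Naive cells (CD8b+ CD4neg CD44lo CD122neg). Tissue, age, genotype and sort therefore differ together between tumours and the other groups and cannot be told apart. The libraries held 547665 to 943699 reads. The labels give no cell numbers, so fewer cells of a clone and less RNA per cell cannot be told apart.

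An alpha chain CDR3 is made where a V segment is joined to a J segment. Bases are trimmed and added at random at the joint, so the middle of the loop varies from cell to cell, while its first residues come from the V segment and its last residues from the J segment. Short joints with few added bases are made again and again in different cells and mice and give public CDR3s, and longer joints with more added bases tend to be private to an animal. In TRAMP mice a prostate-specific promoter drives a viral oncogene in the prostate epithelium. The CDR3s are written here without the conserved residues at their ends.

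The largest private CDR3 of each tumour is shown first, since it took from 4.68% (Tumour 2) to 61.6% (Tumour 4) of the private reads of its tumour.
Tumour 1: AVRPLFWTNKVV
Tumour 2: AFRDDTNAYKVI
Tumour 3: AIEPRLGNNKLT
Tumour 4: ATASSNMGYKLT
Tumour 5: VLRRPGYQNFY
All but the last begin with A, the usual first residue of mouse alpha chain loops, and they have different J ends. NAYKVI is the end encoded by TRAJ30, MGYKLT by TRAJ9 and GYQNFY by TRAJ49. The first keeps TNKVV of the TRAJ34 end NTNKVV.

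The private CDR3s ranged from a few dominant clones to a long tail of small ones. In Tumour 4 ATASSNMGYKLT had 170040 reads, 20.8% of the library (95% Clopper-Pearson interval 20.7 to 20.9%), and was the most abundant CDR3 of that tumour. The largest private CDR3 took 3.87% of reads in Tumour 1 (3.83 to 3.91%), 0.608% in Tumour 2 (0.591 to 0.625%), 1.97% in Tumour 3 (1.93 to 2.00%) and 1.42% in Tumour 5 (1.40 to 1.45%). Their ranks among all CDR3s of their tumours were 5, 23, 11 and 9. Reads of a PCR library are not independent molecules, so these intervals cover counting error only.

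Private CDR3s took 10.997, 12.989, 15.4, 33.7 and 11.1% of the reads of Tumours 1 to 5, a mean of 16.9 ± 9.60% (SD, n = 5). Tumour 4 stood above the other 4. Its private CDR3s other than the largest took 12.9% of its reads, with the largest clone kept in the total. Taken the same way, the other 4 tumours had 7.13 to 13.5%. In number, private CDR3s made up a similar part of each tumour, from 30.0 to 34.9% of the CDR3s with at least 10 reads. Of all 1294, 96 had at least 1000 reads, 440 had at least 100 but under 1000 and 758 had 10 to 99, and the 96 held 74.1% of the private reads. The median private CDR3 had 79, 61, 39, 107 and 30 reads in Tumours 1 to 5, against 171.5, 83, 500.5, 215 and 448 for the other CDR3s of at least 10 reads in the same tumours. Of the 10 most abundant CDR3s of each tumour, 1, 0, 0, 2 and 1 were private.

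**Figure D1:**
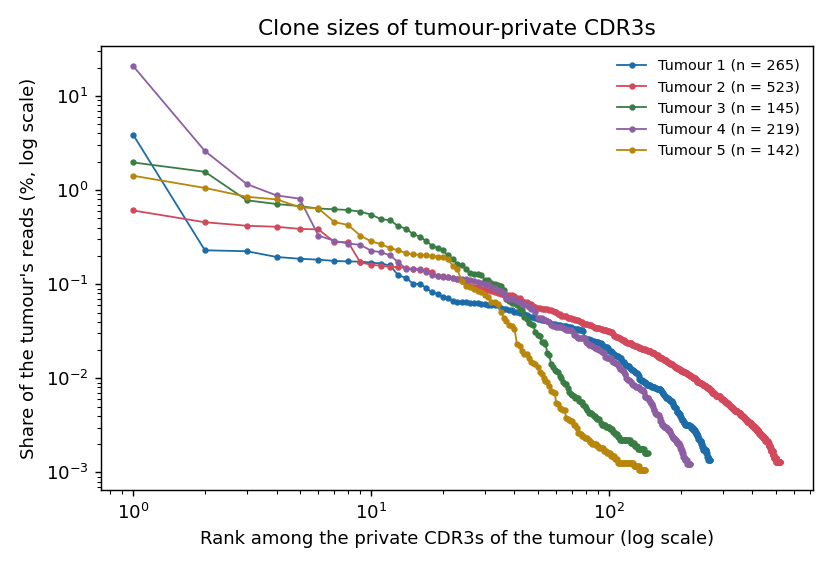
Share of a tumour's reads (%, log scale) taken by each private CDR3, against its rank among the private CDR3s of that tumour (log scale), with 1 line per tumour. The first clone of Tumour 4 stands at 20.8%, and the line of Tumour 2, with 523 private CDR3s, starts lowest, at 0.608%.

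Other large private clones followed in each tumour. In Tumour 1 AVRPLFWTNKVV, with 28886 reads, was followed by a CDR3 of 15 residues with 1713 reads, by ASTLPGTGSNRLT with 1675, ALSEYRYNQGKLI with 1455 and AYSSSGSWQLI with 1393. A single clone thus stood far above the others there. In Tumour 2 the step was shallow, from AFRDDTNAYKVI with 4733 reads to AGAPTNSAGNKLT with 3550, AFPGHTNKVV with 3259, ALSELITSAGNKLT with 3176 and AASMTNAYKVI with 3021.

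In Tumour 3 AIEPRLGNNKLT had 12350 reads and SLVNTGNYKYV 9832, and AVGATNAYKVI, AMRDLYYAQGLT and ATDAWQGGSAKLI had 4895, 4463 and 4248. In Tumour 4 VGNAGAKLT, ALPGRDSGYNKLT, ASMNQGGSAKLI and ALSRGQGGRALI had 21312, 9483, 7184 and 6641 reads. In Tumour 5 VLRRPGYQNFY had 13424 reads, AVREPYTGYQNFY 9956, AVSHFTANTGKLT 8022, GDTGKLT 7529 and APSDSGYNKLT 6222. The first 2 of Tumour 5 share the TRAJ49 end, and GDTGKLT, with 7 residues, was the shortest of these 25.

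At the threshold, between 9 and 10 reads, the values ran on without a step. The tumours together listed 47 private CDR3s at 10 reads and 35 at 11, just inside the rule, and 53 at 9 reads and 50 at 8, just outside it. Below that the number rose, to 92 at 7 reads. Without a read minimum 3266 CDR3s were private to a tumour.

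Many private CDR3s lay next to a far more abundant CDR3 of the same tumour. A neighbour is a CDR3 of the same length that differs at 1 residue. Of the 1294, 291 (22.5%) had a neighbour with at least 100 times their own reads, namely 51, 35, 76, 47 and 82 in Tumours 1 to 5, or 19.2, 6.69, 52.4, 21.5 and 57.7% of the private CDR3s. Tumours 3 and 5, with the fewest private CDR3s, had the highest shares, and Tumour 2, with the most, the lowest. Among the other CDR3s of at least 10 reads in the same tumours the shares were 12.4, 7.50, 28.5, 11.9 and 26.6%, with the same tumours highest and lowest. Private CDR3s had the higher share in 4 of 5 tumours and the lower in Tumour 2, a difference of 14.1 ± 13.1 percentage points (SD, n = 5; exact two-sided sign-flip permutation p = 0.125). These 291 were small. Their median was 33, 15, 18, 23 and 15.5 reads, the largest had 828, and together they held 1.23 to 3.97% of the private reads of a tumour. Among private CDR3s of 10 to 99 reads 267 of 758 had such a neighbour, against 24 of 440 with at least 100 but under 1000 reads and 0 of 96 with at least 1000 reads. The 100-fold definition itself limits these sizes: a CDR3 of 1000 reads would need a neighbour of 100 times that number. The most abundant CDR3 had 26279 reads in Tumour 3 and 109552 to 213572 in Tumours 1, 2, 4 and 5. A CDR3 just above 1000 reads could thus qualify in those 4 tumours but not in Tumour 3.

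The abundance ratio had separate peaks. In 291 cases the most abundant neighbour had at least 100 times the reads, with a median ratio of 373, so that the private CDR3 stood at a median of 0.268% of its neighbour. In 349 cases the neighbour was the rarer of the pair, at a median ratio of 0.00890. Between these, 118 private CDR3s had a neighbour 1 to 10 times and 76 one 10 to 100 times as abundant, and 460 had no neighbour listed in their tumour. By contrast, 2 of the 1294 could be reached from such an abundant CDR3 by the gain or loss of 1 residue.

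**Figure D2:**
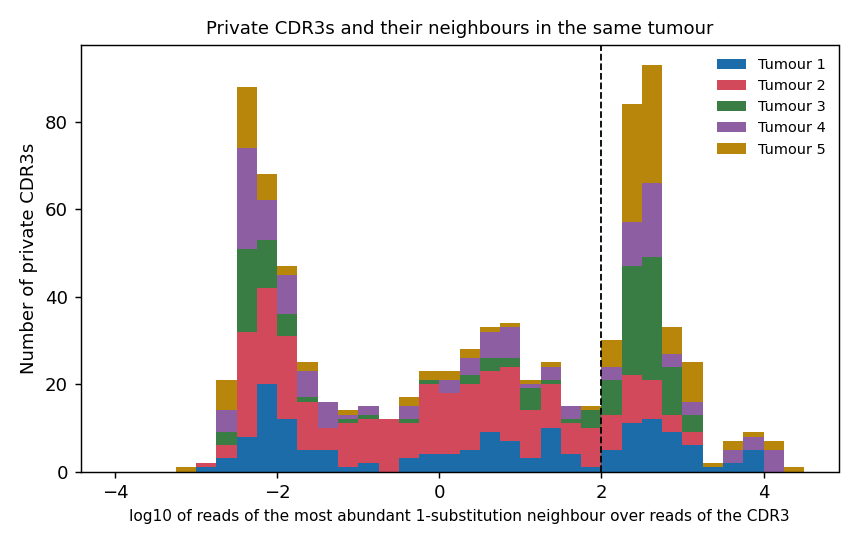
Number of private CDR3s by the log10 ratio of the reads of their most abundant 1-substitution neighbour in the same tumour to their own reads, stacked by tumour, in bins of 0.25; the 460 without a neighbour are left out. The peak right of the dashed line holds the 291 private CDR3s with a neighbour at least 100 times as abundant, and the peak at the left holds those that are the more abundant of the pair.

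The exchanged residues differed with the abundance of the neighbour. Where the neighbour was at least 100 times as abundant, 284 of 291 exchanges (97.6%) can arise from 1 base change in a codon, and 242 (83.2%) from a transition, a change between A and G or between C and T. For neighbours 1 to 10 times as abundant these were 71 (60.2%) and 35 (29.7%) of 118. Over all 380 ordered pairs of residues the genetic code allows 150 (39.5%) by 1 base and 52 (13.7%) by a transition. The exchanges seen most were asparagine to aspartate in 24, asparagine to serine in 19, threonine to alanine in 17 and serine to glycine in 16 cases. The codons themselves are not in the peptide lists, so these counts say what the code allows and not which base was read. Whether such private CDR3s are reading errors was not tested.

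**Figure D3:**
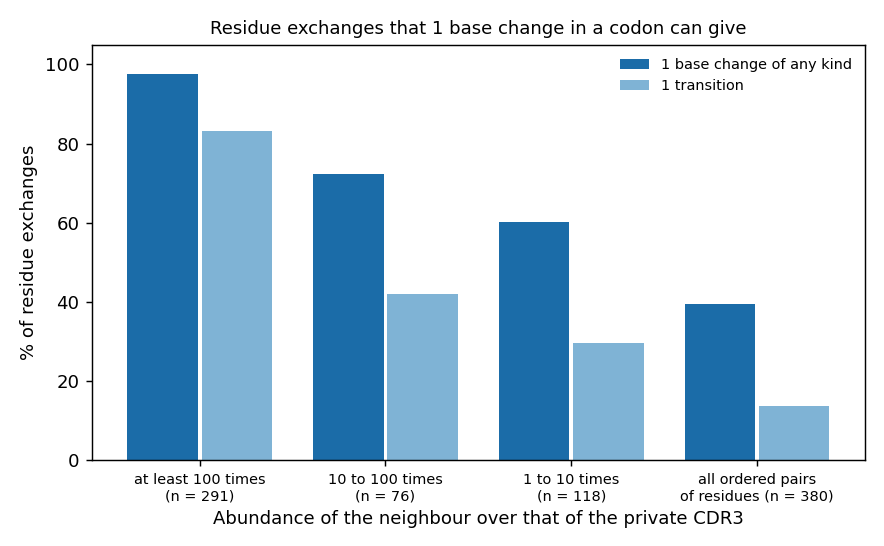
Percentage of residue exchanges between a private CDR3 and its most abundant neighbour that 1 base change (dark bars) or 1 transition (light bars) in a codon can give, by how many times more abundant the neighbour was, with all 380 ordered pairs of residues at the right. The dark bar falls from 97.6% at ratios of at least 100 to 60.2% at ratios of 1 to 10.

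The largest private CDR3 of this kind in each tumour is shown with the neighbour it differs from, to let the change be seen. Substitutions give the residue of the abundant neighbour, its position counted from 1 at the first residue shown, and the residue of the private CDR3.
Tumour 1 private: AVRGNNYAQGLA
Tumour 1 neighbour: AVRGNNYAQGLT
Tumour 2 private: AARPPLYGNEKIT
Tumour 2 neighbour: AARPPRYGNEKIT
Tumour 3 private: AGRPPRHGNEKIT
Tumour 3 neighbour: AGRPPRYGNEKIT
Tumour 4 private: ATAPSNMGYKLT
Tumour 4 neighbour: ATASSNMGYKLT
Tumour 5 private: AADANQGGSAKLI
Tumour 5 neighbour: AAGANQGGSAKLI
The substitutions are T12A, R6L, Y7H, S4P and G3D in Tumours 1 to 5. AVRGNNYAQGLA had 446 reads beside 109552 of its neighbour, AARPPLYGNEKIT 308 beside 112786, AGRPPRHGNEKIT 152 beside 26279, ATAPSNMGYKLT 828 beside 170040 and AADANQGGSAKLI 173 beside 213572. In each of these tumours the neighbour was the most abundant CDR3 of the whole library. The private CDR3 stood at 0.407, 0.273, 0.578, 0.487 and 0.0810% of it.

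The abundant neighbours were 113 CDR3s, counted per tumour, of which 38 were private themselves. They stood beside 125 of the 291, and neighbours that other libraries list too stood beside 166. ATASSNMGYKLT alone had 16 private CDR3s beside it, with 2938 reads in all, 1.73% of its own. AVRPLFWTNKVV had 11, with 839 reads, or 2.90% of its own, and AIEPRLGNNKLT had 7, with 172 reads or 1.39%. Of the 96 private CDR3s with at least 1000 reads, 92 had at least 1 listed neighbour of at most 1 in 100 of their reads, counting also those under 10 reads. The 5 with at least 10000 reads had 8 to 25 such neighbours, which summed to 1.03 to 2.99% of their reads.

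Substitutions were rare in the J end. Among the 291, 14.1% lay in the last 6 residues, which made up 51.5% of the loop on average. For neighbours 1 to 10 times as abundant it was 4.24%, beside 53.9% of the loop. Tumour 5 was the highest, with 25.6%, and Tumour 4 the lowest, with 2.13%.

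Private CDR3s joined by single substitutions formed families, of which the largest in each tumour is described. In Tumour 4 the largest family held 17 CDR3s and 172978 reads, of which ATASSNMGYKLT held 170040 and the next 828. The largest family of Tumour 1 had 12 CDR3s, led by AVRPLFWTNKVV with 28886 reads and 133 in the next. AIEPRLGNNKLT led 9 in Tumour 3, with 828 reads in the next, and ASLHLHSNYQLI led 7 in Tumour 5, with 6022 reads and 21 in the next. Another family of 7 in Tumour 5 was led by its largest private CDR3, VLRRPGYQNFY. The families of ATASSNMGYKLT, AVRPLFWTNKVV, AIEPRLGNNKLT and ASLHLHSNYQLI had 1 dominant member each. In Tumour 2 the largest family, of 12, was level instead: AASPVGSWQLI, with the TRAJ22 end GSWQLI, had 652 reads, the next had 627, and the family 2331. Private CDR3s without a private neighbour numbered 214 of 265, 418 of 523, 69 of 145, 164 of 219 and 73 of 142 in Tumours 1 to 5.

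Of the 1294, 185 had a most abundant neighbour with 0.1 to 10 times their own reads. Of these, 3 large ones are given, chosen after their values were seen. In Tumour 5 a CDR3 of 12 residues with a cysteine and the end NTGKLT had 4322 reads and its neighbour 4496 (A4S). In Tumour 1 AYSSSGSWQLI had 1393 reads and ADSSSGSWQLI 1332 (D2Y). AASMTNAYKVI in Tumour 2, with 3021 reads, differed by A4M from AASATNAYKVI with 18128, an exchange that 1 base cannot give.

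Private loops were longer than the other CDR3s of the same tumour, in every tumour. Their mean length over distinct CDR3s was 11.9, 11.9, 12.1, 11.9 and 11.7 residues in Tumours 1 to 5, against 11.1, 11.1, 11.2, 11.3 and 11.1 for the CDR3s of at least 10 reads that another library lists as well. The 2 sets did not overlap. The difference was 0.727 ± 0.165 residues (SD, n = 5) with an exact two-sided sign-flip permutation p of 0.0625, the smallest that 5 tumours allow. The same step was 0.638 ± 0.135 residues in MP and 0.163 ± 0.246 in Naive libraries. At 11 residues the other CDR3s held 44.1 ± 4.93% and the private ones 26.2 ± 4.86%, and at 13 residues these were 9.58 ± 2.40% and 19.4 ± 4.94%. Lengths ran from 4 to 31 residues. Loops of 15 residues or more made up 73 of the 1294, and 3.45 to 7.17% of a tumour's private CDR3s, against 0 to 0.587% of the others. In MP libraries they were 4.37 ± 2.04% of private and 0.576 ± 0.101% of other CDR3s. Loops of 8 residues or fewer were 31 of the 1294.

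**Figure D4:**
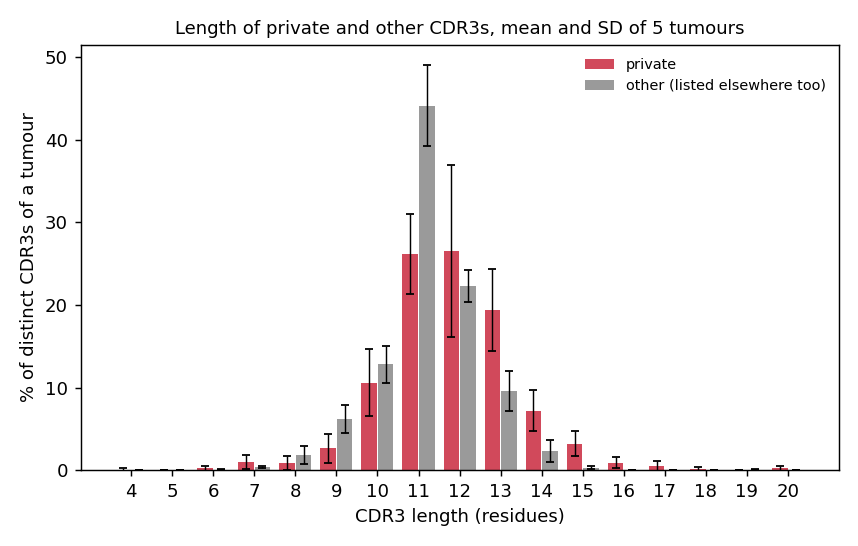
Percentage of the distinct CDR3s of a tumour at each length (residues), mean and SD of 5 tumours, for private CDR3s (red) and other CDR3s of at least 10 reads that another library lists too (grey); lengths of 4 to 20 residues are drawn. The grey bars peak at 11 residues with 44.1%, and the red bars spread over 11 and 12, with more at 13 and above.

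The J ends of private CDR3s were mostly the usual ones, but less often than in the other CDR3s. An end was counted as common when at least 10 of the 4440 CDR3s listed in all 5 Naive libraries have the same last 6 residues, which gave 38 ends. Private CDR3s had a common end in 85.7, 86.8, 87.6, 90.9 and 81.0% of cases in Tumours 1 to 5, and the others in 93.9, 93.1, 91.5, 93.5 and 89.7%. The difference was -5.97 ± 2.65 percentage points in tumours, -4.94 ± 2.19 in MP and -7.41 ± 1.09 in Naive libraries, with private CDR3s lower in all 5 libraries of each group. The definition sets part of this direction, since the other CDR3s may belong to those 4440 and private ones may not, so no test is given.

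No end dominated the private set. The 5 held by most of the 1294 were GSWQLI (TRAJ22) with 80, NAYKVI (TRAJ30) with 76, NTGKLT with 58, NYNVLY (TRAJ21) with 52 and GNYKYV (TRAJ40) with 46. NTGKLT is shared by more than 1 J segment. NAYKVI took 5.09 ± 1.66% of a tumour's private CDR3s against 10.2 ± 1.68% of its others, and NYNVLY 3.68 ± 2.17% against 9.38 ± 2.82% (SD, n = 5). Both were lower among private CDR3s in 5 of 5 tumours. GSWQLI, at 4.66 ± 3.67 and 7.03 ± 1.99%, and NTGKLT, at 5.05 ± 1.69 and 4.205 ± 0.796%, differed by less than the larger SD of each pair. GSWQLI was higher among private CDR3s in 1 of 5 tumours and NTGKLT in 3 of 5. GNYKYV stood at 3.99 ± 3.70 and 4.02 ± 0.293%, and of its 46 private CDR3s 15 were in Tumour 3. Of those, 9 lay beside a CDR3 at least 100 times as abundant, as did 76 of all 145 private CDR3s of that tumour. The ends were unevenly spread over tumours: Tumour 5 held 19 of the 45 with the TRAJ49 end GYQNFY, and Tumour 3 held none of the 52 with NYNVLY. Of those 19, 14 lay beside a CDR3 at least 100 times as abundant, as did 82 of all 142 private CDR3s of Tumour 5. These shares are descriptions without a test.

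At the start of the loop, where the V segment contributes, AAS was the most frequent with 154 private CDR3s. It took 11.7 ± 1.59% of a tumour's private CDR3s and 24.4 ± 2.17% of its others, and the ranges did not overlap (9.13 to 13.2 and 21.9 to 27.2%). ALS, with 106 CDR3s, AVS, with 83, and ALG, with 53, had close means, at 8.06, 6.37 and 4.03% of the private and 8.64, 6.67 and 4.01% of the other CDR3s. AVR, with 51, took 4.49 ± 2.38 and 2.22 ± 1.31%, and was higher among private CDR3s in 5 of 5 tumours. The first residue was A in 89.8 ± 2.60% of private and 97.6 ± 0.705% of other CDR3s, with no overlap (87.3 to 93.2 and 96.9 to 98.6%). It was also lower among private CDR3s in MP libraries, at 89.4 ± 3.61 against 95.9 ± 0.453%, and in Naive ones, at 94.1 ± 0.735 against 97.8 ± 0.194%. Among the 5 largest private CDR3s of each tumour, those that begin otherwise were SLVNTGNYKYV, VGNAGAKLT, VLRRPGYQNFY and GDTGKLT. Of all 96 with at least 1000 reads, 83 begin with A.

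A cysteine, a residue that is rare in CDR3 loops, stood in 32 of the 1294, or 1.83 to 5.52% of a tumour's private CDR3s, against 0.587 to 1.48% of the others. Private sets held more than the others in MP libraries too, at 1.38 ± 0.208 against 0.628 ± 0.105%, and in Naive ones, at 1.57 ± 0.345 against 0.780 ± 0.0519%. Of these 32, 11 were among the 291 with a far more abundant neighbour, who made up 22.5% of all 1294. The CDR3 of Tumour 5 with 4322 reads, above, was 1 of the 32. Net charge, taken as lysines and arginines minus aspartates and glutamates, averaged 0.540, 0.491, 0.752, 0.667 and 0.563 per private CDR3 in Tumours 1 to 5 and 0.540, 0.534, 0.541, 0.575 and 0.482 per other CDR3. It was higher among private CDR3s in 3 of 5 tumours, by 0.0680 ± 0.0977 (exact sign-flip permutation p = 0.25). Loops of other T cells were looked for by peptide. Neither the invariant CDR3 of iNKT cells nor the MAIT motif was among the 1294. The rule drops any CDR3 that another library lists, so a loop that recurs between mice is removed by it. This absence therefore does not show whether the tumours held such cells.

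Absence from the other libraries did not mean that similar loops were absent. Of the 1294, 914 had a neighbour at 1 substitution in a Naive library, 710 in an MP library and 422 in another tumour, and 288 had none in any of the other 14 libraries. By tumour, 69.1 ± 5.47% of private CDR3s had a Naive and 53.8 ± 7.03% an MP neighbour, against 94.8 ± 2.41 and 92.4 ± 1.83% of the other CDR3s. Private sets were lower in the other groups too. A neighbour in another Naive library was found for 77.7% of private and 98.6% of other CDR3s in MP, and for 83.2 and 99.4% in Naive libraries. For a neighbour in another MP library these were 62.8 and 96.3% in MP, and 61.2 and 93.6% in Naive libraries. These shares depend on how many CDR3s a library lists, up to 29559 in Naive and 2657 in tumours.

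For the 5 largest private CDR3s with a relative in a Naive or MP library, 1 relative each is named, with 6 to 21 reads. These 5 were picked for their reads, so the contrast in size does not speak for the other private CDR3s. ATASSNMGYKLT differed by L2T from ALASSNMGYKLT, which had 12 reads in Naive 5. VGNAGAKLT differed by H2G from VHNAGAKLT, with 21 reads in Naive 4. AVREPYTGYQNFY differed by M2V from AMREPYTGYQNFY, with 15 reads in MP 1, and SLVNTGNYKYV by A1S from ALVNTGNYKYV, with 20 reads in Naive 3 and listed in all 5 Naive libraries. GDTGKLT differed by N2D from GNTGKLT, with 6 reads in Naive 5. AVRPLFWTNKVV, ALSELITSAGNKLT, AIEPRLGNNKLT, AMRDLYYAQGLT, ATDAWQGGSAKLI, ALPGRDSGYNKLT, VLRRPGYQNFY and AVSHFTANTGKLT had 0 neighbours in the other 14 libraries.

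Private CDR3s of different tumours were linked in 150 cases by a single substitution. VGNAGAKLT of Tumour 4 lay next to IGNAGAKLT of Tumour 1, which had 454 reads (I1V). AVGATNAYKVI of Tumour 3, with 4895 reads, lay next to APGATNAYKVI of Tumour 5, with 2167 (P2V). The cysteine-holding CDR3 of Tumour 5 with 4322 reads lay next to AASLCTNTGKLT of Tumour 3, with 911 (L4S), and AAYSGGNYKPT of Tumour 5, with 3100 reads, next to AAMSGGNYKPT of Tumour 2, with 59 (M3Y). All 4 exchanges lay within the first 4 residues, so the last 4 residues of each pair were the same by definition.

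For comparison, the same rule was applied to each MP and Naive library: at least 10 reads there and no listing in any of the other 14. It gave 257 to 1793 private CDR3s per MP library and 399 to 1560 per Naive library. As a description of what the rule selects, their reads made up 5.85 ± 0.657% of an MP library and 2.31 ± 1.78% of a Naive one, and their largest had 1710 reads in MP and 82 in Naive.

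The mean length of private loops was higher in tumours than in MP libraries, and the sets differed mainly in short loops. Loops of 8 residues or fewer made up 2.18 ± 0.883% of private CDR3s in tumours and 10.6 ± 3.02% in MP libraries. Loops of 13 residues or more made up 31.9 ± 2.24% in tumours and 31.2 ± 1.56% in MP libraries. The mean length was 11.9 ± 0.162 residues in tumours (11.7 to 12.1) and 11.4 ± 0.0739 in MP (11.3 to 11.5; SD, n = 5 each), a difference of 0.512 without overlap (adjusted exact two-sided permutation p = 0.0159 over 4 features; raw p = 0.00794, the smallest that 5 against 5 libraries allow). The other CDR3s of at least 10 reads differed in the same direction without overlap, at 11.1 to 11.3 residues in tumours and 10.6 to 10.9 in MP, and the step from other to private CDR3s differed by 0.0894 residues (adjusted exact permutation p = 0.476). Private Naive loops averaged 11.5 ± 0.280 residues, and the difference of 0.425 did not pass (adjusted exact permutation p = 0.0635). Naive 2, at 11.9 residues, reached the tumour values, and without it the difference was 0.530 and passed (adjusted exact permutation p = 0.0317). With every listed private CDR3 counted, from 2 reads up, the difference from Naive turned to -0.131 (adjusted exact permutation p = 0.0952), while that from MP was 0.468.

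A neighbour at least 100 times as abundant was more frequent beside the private CDR3s of tumours than of either other group. It was found for 31.5 ± 22.3% of them (6.69 to 57.7%), for 0.809 ± 0.708% of the MP sets (0 to 1.68%) and for 1.02 ± 0.530% of the Naive sets (0.321 to 1.75%). The difference was 30.7 percentage points from MP (adjusted exact permutation p = 0.0159) and 30.5 from Naive (adjusted exact permutation p = 0.0317). The latter no longer passed, at an adjusted exact permutation p of 0.0635, when any 1 library other than Naive 2 was left out. The difference was then still 23.9 to 36.7 points, and the raw p, 0.0159, was the smallest that 4 against 5 libraries allow. The number of very abundant CDR3s was also higher in tumours: 10 to 15 CDR3s had at least 10000 reads in a tumour, 5 to 9 in an MP and 0 to 2 in a Naive library. Those with at least 1000 reads numbered 85 to 121, 84 to 123 and 74 to 102. Among the tumours, Tumours 2 and 5 had 12 CDR3s each of at least 10000 reads, with neighbour shares of 6.69 and 57.7%. The share rests on read counts, on which the rule set its minimum of 10, so the test is not free of the rule. Private CDR3s of at least 1000 reads, which can be such neighbours, numbered 96 in the tumours, 9 in MP and 0 in Naive libraries. The part of these numbers in the result was not tested. Weighted by reads, the difference was 1.67 percentage points from MP and 1.21 from Naive.

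Common J ends and net charge did not pass the test with each CDR3 counted once. A common end was held by 86.4 ± 3.58% of private CDR3s in tumours, 80.3 ± 3.79% in MP and 88.3 ± 1.28% in Naive libraries. The difference from MP, 6.04 percentage points, just missed the threshold (adjusted exact permutation p = 0.0529), passed without Tumour 5 at 7.38 points, without MP 1 at 6.79 or without MP 5 at 7.07 (adjusted exact permutation p = 0.0212, 0.0423 and 0.0423), and was -0.500 when weighted by reads. The difference from Naive was -1.97 points (adjusted exact permutation p = 0.317), on ends that were defined from the Naive libraries. Net charge averaged 0.603 ± 0.105 in tumours, 0.561 ± 0.0159 in MP and 0.504 ± 0.0602 in Naive libraries (adjusted exact permutation p = 0.421 against MP and 0.190 against Naive). Weighted by reads it was 0.795 in tumours, 0.523 in MP and 0.504 in Naive libraries, and both differences then passed (adjusted exact permutation p = 0.0317 each). The weights are read counts, which the rule used, so large clones count most. ATASSNMGYKLT, with a net charge of 1, held 61.6% of the private reads of Tumour 4, and AVRPLFWTNKVV, with 2, held 35.2% in Tumour 1. Within tumours the difference weighted by reads, private minus other CDR3s, was 0.107 (exact sign-flip permutation p = 0.375).

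**Figure D5:**
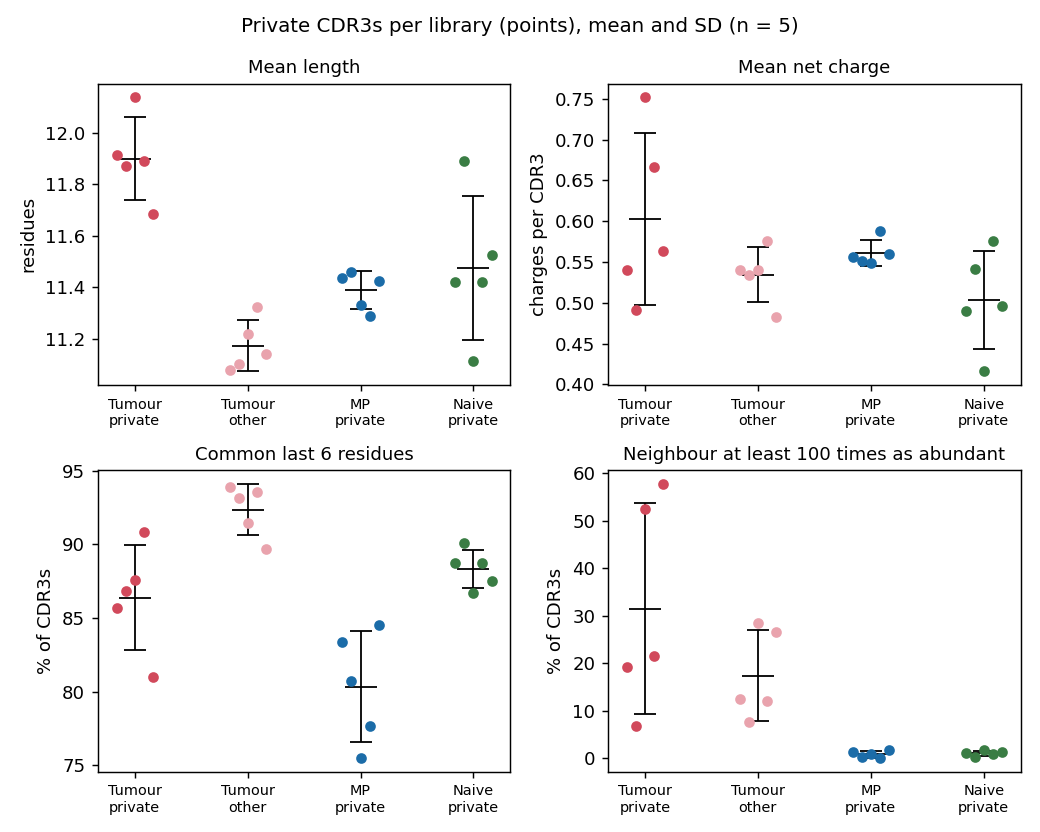
Mean length (residues), mean net charge, percentage with a common last-6-residue end and percentage with a neighbour at least 100 times as abundant, each point 1 library, with the mean and SD of 5 libraries as black bars; private CDR3s of tumours, MP and Naive libraries and the other CDR3s of tumours. Tumour private loops lie above all MP points in length, and their neighbour share, from 6.69 to 57.7%, lies above every MP and Naive library; the vertical axes do not all start at 0.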

How the data were processed

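Each deposited list pairs peptides of 1 library with their read counts, whole numbers whose totals differ between libraries, used here without normalization. Per the labels, RNA was taken with Trizol from FACS-purified cells and iRepertoire made and sequenced the libraries by multiplex PCR (arm-PCR); the labels name no CDR3 caller, error filter or molecular identifier. Private CDR3s, neighbours and features were computed from the counts in python 3.11.15 with numpy 2.4.6, pandas 2.3.3 and scipy 1.17.1, after a check of the code on made-up lists with known neighbours, and plotted with matplotlib 3.10.9. Values per library were compared by exact permutation over all 252 ways to split 5 against 5 libraries. Two-sided p-values double the smaller tail and were adjusted by Benjamini-Hochberg over 4 features within a comparison, with a threshold of 0.05. Within tumours, signs were flipped over the 5 tumours. No test was made of the number or the reads of private CDR3s, which the rule used. The neighbour share rests on a ratio of reads and so is not free of the read minimum. Per the series text, Naive and MP cells came from 5 mice and tumours from 5 others; whether a Naive and an MP library share a mouse is not given there.

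The CDR3s named were, per tumour, the 5 largest private ones, the largest private one with a neighbour at least 100 times as abundant, and the lead of the largest family, then the 5 commonest ends and starts and the 5 largest with a relative in a Naive or MP library and in another tumour; CDR3s of 15 residues or more are not spelled out. J segments were named from general knowledge and not checked against sequence. The members and lists were chosen with earlier results of these data known.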

Additional observations from a re-analysis of the deposited data

Results flagged for a closer look

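Private CDR3s took 33.7% of the reads of Tumour 4, which stood apart from the other 4 tumours, at 10.997 to 15.4%. Naive 2 stood apart in its group in both measures of size, with 5.41% of its reads in private CDR3s, against 0.878 to 2.02% in the others, and with a median of 17 reads per private CDR3, against 12 to 13. The net charge of the private CDR3s of MP 4, 0.588, stood above the other MP libraries, at 0.549 to 0.559. In all, 21 sets of 5 libraries were looked at, and chance would set about 1 in 20 apart.

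The step from other to private CDR3s within a library differed between groups in 3 cases, by an exact two-sided permutation test added after the values were seen and adjusted over 4 features. For the share with a neighbour at least 100 times as abundant, private minus other CDR3s was 14.1 ± 13.1 percentage points in tumours and higher in 4 of 5, and -4.33 ± 0.775 in MP and -3.82 ± 0.369 in Naive libraries, lower in all 5 of each. The steps differed by 18.5 points from MP (adjusted exact permutation p = 0.0317) and 17.95 from Naive (adjusted exact permutation p = 0.0159). This share rests on read counts, which the rule used. For length the step was 0.727 ± 0.165 residues in tumours, 0.638 ± 0.135 in MP and 0.163 ± 0.246 in Naive libraries. It differed from Naive by 0.564 (adjusted exact permutation p = 0.0159) and from MP by 0.0894 (adjusted exact permutation p = 0.476).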

How the results depend on the processing

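Of 179 recomputed values, 149 kept direction and, where a threshold was set, their side of it. Within-tumour values had no threshold and count by direction alone. All of them kept it, 10 each for length, charge and ends and 9 for neighbours. With the library number as a replicate block, the length difference from MP (0.512) and the neighbour differences from MP (30.7) and Naive (30.5) no longer passed, at adjusted exact sign-flip permutation p of 0.125, 0.125 and 0.25; 5 pairs cannot go below a raw p of 0.0625. The numbers pair no libraries: tumours come from other mice, and deviations of same-numbered libraries correlated at -0.0409 to 0.0218. The common-end difference from MP passed with at least 2 reads (3.68), at least 0.002% of reads (6.01), the last 4 residues (4.28), without CDR3s beside a far more abundant neighbour (7.78) and, chosen after seeing the data, without MP 1 and MP 5 (8.43), and turned to -0.500 by reads. From Naive it was -6.71 and passed with at least 2 reads, and turned to 0.192 with the last 4 residues. The length difference from Naive passed at 0.002% of reads (0.639), by reads (0.449) and with tumour lists ignored for MP and Naive sets (0.430), and was -0.131 from 2 reads up. Net charge passed only by reads, where large clones count most, at 0.271 from MP and 0.291 from Naive. With 1 library left out, differences from MP ran from 0.452 to 0.566 residues, 0.00455 to 0.0696 charges, 4.82 to 7.38 and 24.1 to 36.9 points (ends, neighbours), and from Naive from 0.335 to 0.530 residues, 0.0616 to 0.127 charges, -3.09 to -0.620 and 23.9 to 36.7 points. A minimum of 50 reads left no private CDR3 in some Naive libraries and gave no value there; against MP the neighbour difference was then 8.87 points. The neighbour difference was 31.96 points from MP and 28.9 from Naive at a ratio of 10, and 5.23 and 5.20 at 1000. From 2 reads up it was 43.2 from MP, where the MP share rose to 19.6%, and 59.7 from Naive. Depth limits the small private CDR3s: most had under 100 reads, and a CDR3 is listed from 2.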
